A study of Mus musculus with 10 samples.

Results

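The genes described here are 34 genes of red cell formation and haem synthesis, followed in mouse bone marrow cultures given adiponectin or none. They were chosen from a fixed list by symbol. Each is read from a probe set, the group of oligonucleotides on the array that reports 1 gene, whose only annotated symbol is that gene. Where a gene had several such probe sets, that of the highest mean signal was taken. All 34 listed genes were measured, among 19938 genes in all. The marrow came from the long bones of male Swiss mice of 4 to 6 weeks, and both arms grew in αMEM medium that held 10% fetal calf serum plus 10 nM calcitriol, the active form of vitamin D. One arm received recombinant mouse adiponectin, a fat-cell hormone, at 5 µg/ml. The other was its control, called vehicle-treated in one label and untreated in another. Cultures were taken after 4, 10, 24, 72 and 120 h, with 1 array per arm and time, or 10 arrays in total. The series title speaks of lipopolysaccharide, a bacterial endotoxin, contaminating the preparation, so effects of adiponectin and of such a contaminant cannot be told apart here. The labels do not say whether cultures came from separate animals or pools, and the spread between cultures that enters the p-values may be technical. With 1 array per arm and time, that spread cannot be separated from misfit of the model. For a line fitted along time, the error includes departure from the line. Where the arms are paired by time, it includes differences between the arms that vary with time.

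Red cells form in marrow from progenitors that depend on erythropoietin, which acts through the receptor encoded by Epor. The transcription factors GATA1, TAL1 and KLF1 switch on the genes of haemoglobin, haem synthesis and the red cell membrane. Haem synthesis starts in the mitochondrion with ALAS2, the erythroid 5-aminolevulinate synthase, passes through the cytosol, and ends in the mitochondrion again, where ferrochelatase (Fech) inserts iron. In whole cultures, fewer red cell precursors and less RNA per precursor cannot be told apart. The probe sets for the adult alpha and beta globins carry several gene symbols, so the globins of adult red cells are not analysed here. Of 10 genes listed as globins or their chaperone, 3 embryonic ones were measured (Hbb-bh1, Hbb-y and Hba-x), and 0 of these passed in any comparison (limma, adjusted p under 0.05). All 3 lay below the median gene of every array, and Hbb-bh1 below the 10th percentile of genes, so changes could be missed.

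Values are on a log2 scale, where 1 unit is a 2-fold difference in signal. Array medians over the 19938 genes lay between 8.27 and 8.48. Of the 34 genes, 10 lay above the median of their array on all 10 arrays. Another 10 lay below it on all 10 arrays, namely Klf1, Epb42, Rhag, Rhd, Kel, Uros, Car1, Trim10, Cldn13 and Add2. Rhag, a membrane partner of the Rh blood group protein, ranged from 5.04 to 5.74 and was below the 10th percentile of genes on all 10 arrays, so a change of its transcript could be missed.

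The promoters of 3 members are shown because they hold words that regulators in the list are known to recognise and because these genes fell in different steps of the culture, as described below. The letters are the 250 bases before the start of the gene in RefSeq (assembly GRCm38.p6), 5′ to 3′ on the strand of the gene. Capitals mark 3 searched motifs on either strand. They are the GATA word AGATAA with its variants AGATAG as well as TGATAA as well as TGATAG, the KLF-type word CCNCNCCC, and the NFE2-type word TGANTCA. Some matches to CCNCNCCC overlap one another, in Alas2 and in Epor. The last few bases of the Kel window lie inside the annotated extent of that gene.
Alas2 promoter, chrX:150547167-150547416, plus strand: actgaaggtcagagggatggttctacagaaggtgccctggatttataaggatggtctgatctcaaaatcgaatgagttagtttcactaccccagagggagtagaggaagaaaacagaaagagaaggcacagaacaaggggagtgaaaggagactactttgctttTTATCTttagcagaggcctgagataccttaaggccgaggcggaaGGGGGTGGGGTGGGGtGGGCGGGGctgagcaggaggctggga
Kel promoter, chr6:41704326-41704575, minus strand: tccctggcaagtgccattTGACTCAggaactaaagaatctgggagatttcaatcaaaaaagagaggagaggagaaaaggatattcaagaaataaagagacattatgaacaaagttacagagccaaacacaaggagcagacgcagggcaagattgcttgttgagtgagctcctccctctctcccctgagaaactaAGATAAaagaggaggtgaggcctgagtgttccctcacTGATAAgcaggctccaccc
Epor promoter, chr9:21963577-21963826, minus strand: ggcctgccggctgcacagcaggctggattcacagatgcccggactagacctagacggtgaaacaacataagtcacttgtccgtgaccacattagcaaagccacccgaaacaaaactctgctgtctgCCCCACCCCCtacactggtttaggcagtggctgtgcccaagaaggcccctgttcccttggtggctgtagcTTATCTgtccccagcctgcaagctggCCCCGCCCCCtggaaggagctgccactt
The Alas2 promoter holds a GATA word between 86 and 81 bases before the start, with GC-rich CCNCNCCC words closer to the start. The Kel promoter holds a pair of GATA words and a TGANTCA word, and the Epor promoter 1 GATA word with CCNCNCCC words on both sides of it. RefSeq's table gave 32 promoters for 26 of the 34 genes. A GATA word was found in 14 of these 32 (43.8%), against 26.5% of all 32851 promoters in the table. CCNCNCCC was found in 19 (59.4%), against 45.9% of all promoters, and TGANTCA in 2 (6.2%), against 6.7%. A match describes the letters in the window and is not a binding site.

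Across the culture, 12 of the 34 genes fell in both arms and the others did not pass in both. With both arms together, Alas2, Slc4a1 and the membrane genes Kel and Tspo2 fell between 4 and 24 h. Gata1, Nfe2, Slc14a1 and Epor fell between 24 and 72 h. The other enzymes of haem synthesis, which all cells use, did not pass the test of a fall along the 5 times in either arm. Among these, Fech alone fell between 4 and 24 h with both arms together, by -0.92 (limma adjusted p = 0.0156). The slope along time was fitted per arm as the log2 change per doubling of hours with limma, with p-values adjusted over all 19938 genes.

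**Figure D1:**
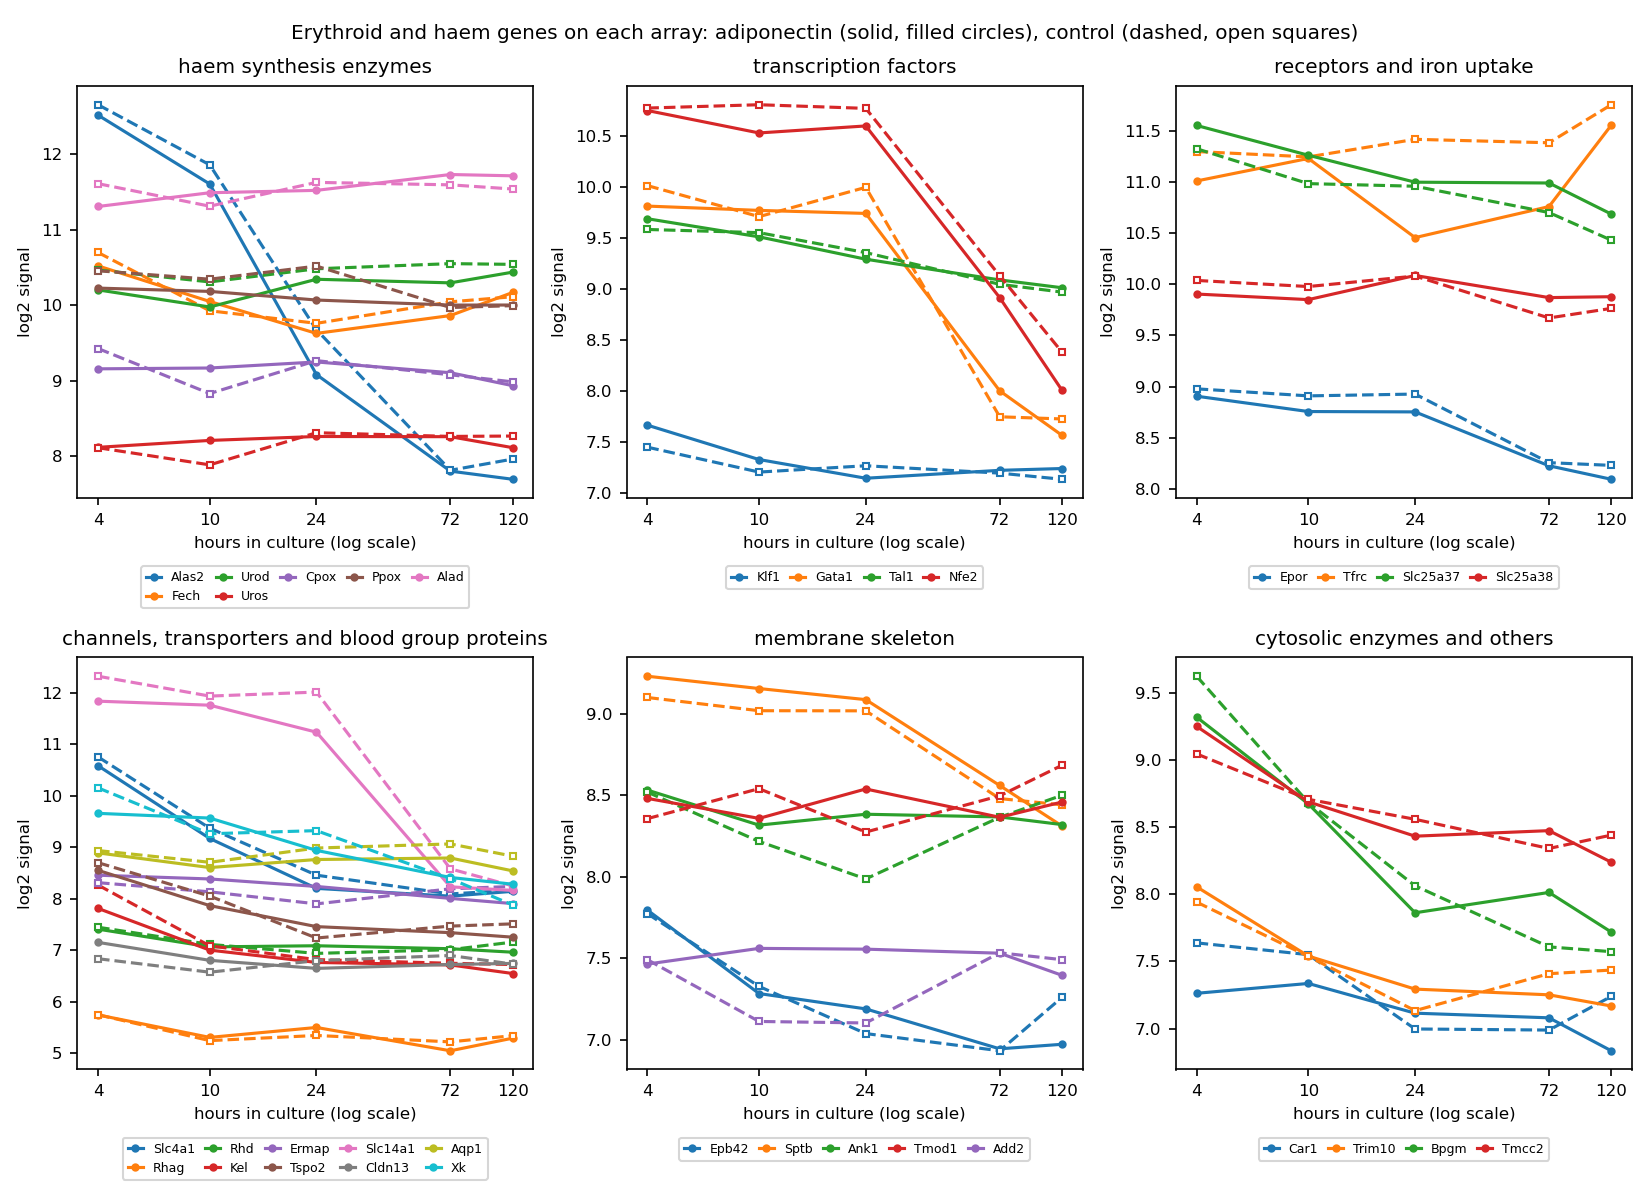
Log2 signal of the 34 genes (vertical axis) against hours in culture (horizontal axis, log scale), in panels by role. Solid lines with filled circles are adiponectin cultures and dashed lines with open squares are control cultures, 1 array per point, with no error bars. Alas2 lies at 7.69 with adiponectin and 7.96 in control at 120 h, against 12.52 and 12.66 at 4 h.

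In adiponectin cultures, the slope was negative past the threshold for 13 of the 34 genes (38.2%) and positive for 0, where 3.46% of all genes fell and 4.15% rose. In control cultures it was also negative for 13 of 34 (38.2%) and positive for 0, where 4.45% of all genes fell and 4.64% rose. The median slope of the 34 genes was -0.11 in adiponectin cultures, against -0.01 for all genes, and -0.10 in control cultures, against 0.02 for all genes. The fall passed in both arms for 12 genes (35.3%, against 2.42% of all genes). These were Alas2, Slc14a1, Nfe2, Gata1, Slc4a1, Xk, Bpgm, Tspo2, Sptb, Epor, Slc25a37 and Tal1. Tmcc2 passed in adiponectin cultures (adjusted p = 0.0192) and had an adjusted p of 0.0559 in control cultures. Kel passed in control cultures (adjusted p = 0.035) and had an adjusted p of 0.0792 in adiponectin cultures. These counts depended on the times included. In adiponectin cultures, 7 genes passed without the 4 h arrays, 5 without the 10 h arrays, 15 without the 24 h arrays, and 1 each without the 72 h or the 120 h arrays. The number of all genes with a falling slope also moved. It was 689 with all times, and 431, 320, 940, 50 and 15 under these omissions in the same order. In control cultures, 9 of the 34 passed without the 4 h arrays, 7 without the 10 h arrays, 14 without the 24 h arrays, 2 without the 72 h arrays and 1 without the 120 h arrays. Of all genes, 888 fell there with all times, and 613, 617, 1195, 27 and 17 under the omissions. Alas2 alone passed in both arms under each of these omissions.

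**Figure D2:**
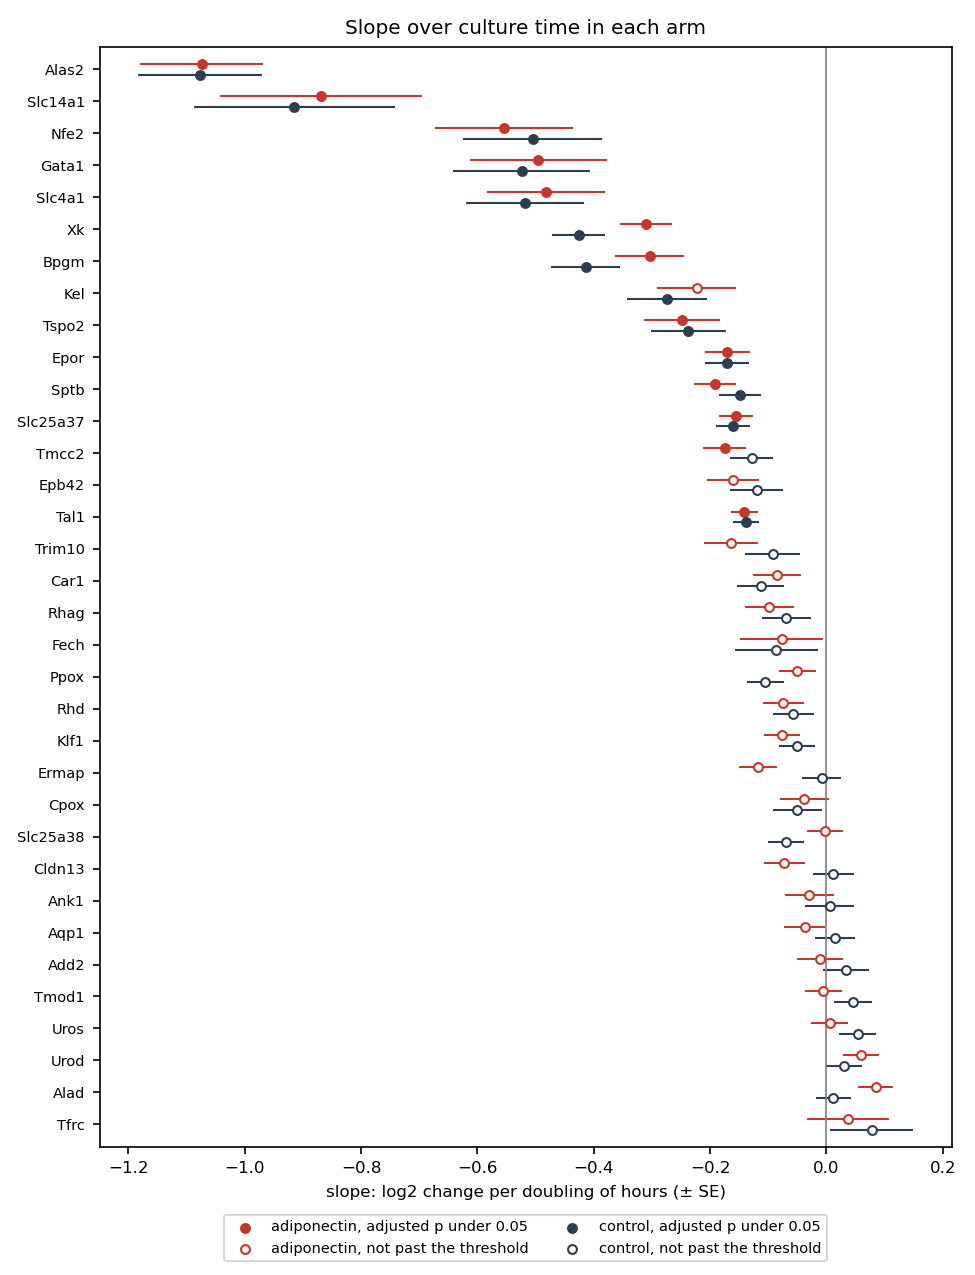
Slope of each of the 34 genes (horizontal axis, log2 change per doubling of hours), with bars of 1 SE, in adiponectin (red) and control (dark) cultures. Filled points passed an adjusted p under 0.05. Alas2 is the steepest in both arms, and genes near the bottom such as Urod, Alad and Tfrc lie around 0.

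The haem synthesis enzymes were represented by Alas2, Alad, Urod, Uros, Cpox, Ppox and Fech. Alas2, the rate-limiting enzyme in red cell precursors, had 12.52, 11.61, 9.08, 7.80 and 7.69 in adiponectin cultures at 4, 10, 24, 72 and 120 h, against 12.66, 11.86, 9.68, 7.81 and 7.96 in control cultures. It fell at each time up to 72 h in both arms and then stayed low, with no overlap between the 4 h and 10 h arrays and the later ones. Its slope was -1.07 ± 0.11 (SE) in adiponectin cultures and -1.08 ± 0.11 in control cultures (limma adjusted p = 0.00199 and 0.00229). The signal at 120 h was 28.4-fold below that at 4 h with adiponectin and 25.9-fold below it in control cultures.

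Fech, which inserts iron into the porphyrin ring, had 10.52, 10.05, 9.63, 9.86 and 10.17 in adiponectin cultures, against 10.70, 9.93, 9.76, 10.05 and 10.11 in control cultures. Both arms were lowest at 24 h and partly higher again afterwards. A straight line along time did not capture this (slopes of -0.08 and -0.09, adjusted p = 0.643 and 0.459), whereas the test of any difference among the 5 times did (adjusted p = 0.00329). The enzymes between Alas2 and Fech showed small changes. Alad, the second enzyme, had a slope of 0.09 ± 0.03 in adiponectin cultures and 0.01 ± 0.03 in control cultures (adjusted p = 0.124 and 0.823). Urod, which trims the side chains of the porphyrin ring, and Uros, which closes the ring, had slopes of 0.06 and 0.01 with adiponectin and of 0.03 and 0.05 in control cultures. Cpox and Ppox, the last oxidases, had -0.04 and -0.05 with adiponectin and -0.05 and -0.11 in control cultures. None of these 5 enzymes passed the test in either arm or the test among the 5 times.

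Of the 4 transcription factors, 3 fell in both arms. Nfe2, the factor for globin gene control that also acts in megakaryocytes, had 10.75, 10.53, 10.60, 8.91 and 8.01 in adiponectin cultures, against 10.78, 10.81, 10.77, 9.13 and 8.38 in control cultures. It was level up to 24 h and fell in each later interval in both arms. Its slope was -0.55 ± 0.12 with adiponectin and -0.51 ± 0.12 in control cultures (adjusted p = 0.0217 and 0.0294). Gata1, the central activator of red cell genes, had 9.81, 9.77, 9.74, 8.00 and 7.56 in adiponectin cultures, against 10.02, 9.71, 10.00, 7.74 and 7.72 in control cultures. All arrays up to 24 h lay above all later ones. Its slope was -0.50 ± 0.12 with adiponectin and -0.52 ± 0.12 in control cultures (adjusted p = 0.0325 and 0.0256).

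Tal1, a partner of GATA1 on DNA, declined gradually, with 9.01 at 120 h and 9.69 at 4 h in adiponectin cultures and 8.97 and 9.58 in control cultures. Its slopes were -0.14 ± 0.02 in both arms (adjusted p = 0.0084 with adiponectin and 0.0106 in control cultures). Klf1, which activates the adult beta globin gene, had 7.66, 7.32, 7.14, 7.22 and 7.24 in adiponectin cultures, against 7.45, 7.20, 7.26, 7.19 and 7.13 in control cultures. The 4 h array was the highest in each arm. Its slopes of -0.08 ± 0.03 and -0.05 ± 0.03 did not pass (adjusted p = 0.191 with adiponectin and 0.326 in control cultures).

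Among the genes of erythropoietin signalling and iron uptake, Epor and Slc25a37 fell in both arms and Tfrc and Slc25a38 did not pass. Epor had 8.91, 8.76, 8.75, 8.23 and 8.10 in adiponectin cultures, against 8.98, 8.91, 8.93, 8.26 and 8.23 in control cultures. The arrays up to 24 h lay above those of 72 and 120 h in both arms. The slope was -0.17 ± 0.04 in both arms (adjusted p = 0.0247 with adiponectin and 0.0239 in control cultures). Slc25a37, also called mitoferrin 1, which carries iron into the mitochondrion, had 11.55, 11.26, 10.996, 10.99 and 10.69 in adiponectin cultures, against 11.32, 10.98, 10.96, 10.70 and 10.43 in control cultures. It was highest at 4 h and lowest at 120 h in both arms, and with adiponectin it hardly differed between 24 and 72 h. It fell along time, with slopes of -0.16 ± 0.03 in each (adjusted p = 0.0127 with adiponectin and 0.0125 in control cultures). Tfrc, the transferrin receptor, is used for iron uptake by all dividing cells as well as by red cell precursors. It had 11.01, 11.23, 10.46, 10.76 and 11.55 in adiponectin cultures, against 11.30, 11.24, 11.41, 11.38 and 11.75 in control cultures. The 120 h array was the highest of each arm. Its slopes were 0.04 ± 0.07 with adiponectin and 0.08 ± 0.07 in control cultures (adjusted p = 0.858 and 0.507). Slc25a38, the mitochondrial glycine carrier for haem synthesis, ranged over the 10 arrays from 9.67 to 10.09, with slopes of -0.003 with adiponectin and -0.07 in control cultures.

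Of the 10 channels, transporters and blood group proteins of the membrane, 4 fell with adiponectin and 5 in control cultures. Slc14a1, the urea transporter that carries the Kidd blood group, had 11.84, 11.76, 11.24, 8.23 and 8.16 in adiponectin cultures, against 12.32, 11.94, 12.01, 8.58 and 8.25 in control cultures. Its signal dropped between 24 and 72 h in both arms, and every array up to 24 h lay above every later one. The slope was -0.87 ± 0.17 with adiponectin and -0.92 ± 0.17 in control cultures (adjusted p = 0.0163 and 0.0147). Slc4a1, band 3, the anion exchanger that anchors the membrane skeleton, had 10.58, 9.17, 8.20, 8.05 and 8.14 in adiponectin cultures, against 10.75, 9.37, 8.46, 8.09 and 8.16 in control cultures. Most of its fall lay in the first 24 h in both arms. The slope was -0.48 ± 0.10 with adiponectin and -0.52 ± 0.10 in control cultures (adjusted p = 0.0198 and 0.0166). At 120 h its signal was 5.43-fold below that at 4 h with adiponectin and 6.02-fold below it in control cultures.

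Xk and Kel encode membrane proteins that are linked to each other in the red cell membrane and carry the Kx and Kell antigens. Xk had 9.66, 9.57, 8.94, 8.41 and 8.28 in adiponectin cultures, against 10.15, 9.26, 9.32, 8.39 and 7.88 in control cultures, a fall spread over the culture in both arms. Its slope was -0.31 ± 0.05 with adiponectin and -0.43 ± 0.05 in control cultures (adjusted p = 0.0057 and 0.00352). Kel had 7.81, 6.9997, 6.76, 6.71 and 6.54 in adiponectin cultures, against 8.26, 7.08, 6.82, 6.74 and 6.72 in control cultures. Most of its fall lay before 10 h in both arms. Tspo2, an erythroid relative of the mitochondrial translocator protein TSPO, had 7.25 at 120 h and 8.55 at 4 h in adiponectin cultures, and 7.51 and 8.70 in control cultures, with slopes of -0.25 ± 0.07 and -0.24 ± 0.07 (adjusted p = 0.0451 and 0.0485). With time in linear hours in place of log2 hours, Slc4a1, Bpgm and Tspo2 lost their slope calls in both arms (adjusted p from 0.0549 to 0.261), as did Tmcc2 with adiponectin (0.135) and Kel in control cultures (0.183).

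The remaining 5 membrane genes did not pass in either arm. Rhd, the Rh blood group protein, had slopes of -0.07 with adiponectin and -0.06 in control cultures, and Rhag had -0.10 and -0.07. Aqp1, the water channel, had -0.04 and 0.02. Ermap, an erythroid membrane protein that carries the Scianna antigens in humans, had -0.12 with adiponectin and -0.01 in control cultures (adjusted p = 0.0589 and 0.898). Cldn13, a rodent claudin, had -0.07 and 0.01.

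Of the 5 membrane skeleton genes, Sptb alone fell. Sptb, erythroid beta spectrin, had 9.23, 9.16, 9.09, 8.56 and 8.31 in adiponectin cultures, against 9.10, 9.02, 9.02, 8.48 and 8.44 in control cultures. All arrays up to 24 h lay above all later ones. The slope was -0.19 ± 0.04 with adiponectin and -0.15 ± 0.04 in control cultures (adjusted p = 0.0136 and 0.0333). Epb42, protein 4.2, which joins band 3 to the skeleton, had 7.80, 7.28, 7.19, 6.94 and 6.97 in adiponectin cultures, against 7.77, 7.33, 7.04, 6.93 and 7.26 in control cultures. The 4 h array was the highest in both arms, and the slopes of -0.16 ± 0.05 and -0.12 ± 0.05 did not pass (adjusted p = 0.0587 with adiponectin and 0.124 in control cultures), although the test among the 5 times did (0.00541). Ank1, ankyrin 1, had slopes of -0.03 with adiponectin and 0.01 in control cultures, Add2, beta adducin, -0.01 and 0.03, and Tmod1, the actin-capping tropomodulin 1, -0.005 and 0.05. Tmod1 has a second probe set with lower mean signal whose values differ from the one used. It read 7.51 with adiponectin and 7.86 in control cultures at 24 h, and 8.54 and 8.68 at 4 h. The one used read 8.54 and 8.28 at 24 h, and 8.48 and 8.36 at 4 h.

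Bpgm, the enzyme that makes 2,3-bisphosphoglycerate and so lowers the oxygen affinity of haemoglobin, had 9.32, 8.67, 7.86, 8.01 and 7.72 in adiponectin cultures, against 9.63, 8.68, 8.06, 7.61 and 7.57 in control cultures. Most of the fall lay in the first 24 h in both arms. The slope was -0.30 ± 0.06 with adiponectin and -0.41 ± 0.06 in control cultures (adjusted p = 0.0145 and 0.00614). Tmcc2, a transmembrane coiled-coil protein, had 9.25, 8.69, 8.43, 8.48 and 8.24 in adiponectin cultures, against 9.05, 8.71, 8.56, 8.34 and 8.44 in control cultures, highest at 4 h in each arm. Its slope was -0.18 ± 0.04 with adiponectin and -0.13 ± 0.04 in control cultures. Trim10, an erythroid RING finger protein, had slopes of -0.16 and -0.09 (adjusted p = 0.0642 and 0.242). Car1, carbonic anhydrase 1, had -0.09 and -0.11 (adjusted p = 0.282 and 0.112).

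The test of any difference among the 5 times, which needs no straight line, passed for 18 of the 34 genes (52.9%), where 14.4% of all genes passed. Beside the 12 genes that fell in both arms, these were Kel, Tmcc2, Fech, Epb42, Trim10 and Rhag. Between the ends of the culture, the signal was lower by over 2-fold for 10 genes in adiponectin cultures, where 2.63% of all genes were, and for 9 in control cultures, where 3.49% were. It was higher by over 2-fold for 0 genes in either arm.

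The values by time showed an early and a later loss, and the steps between times were then tested with both arms together (2 arrays per time, added after the data had been seen). From 4 to 24 h, 7 of the 34 genes fell (20.6%), where 29 of all 19938 genes did (0.145%), and 0 rose, where 0.396% of all genes did. Alas2 at 24 h was below its 4 h level by a log2 change of -3.21 ± 0.14 (SE, adjusted p = 4.41e-06). Slc4a1 changed by -2.34 ± 0.12 (6.68e-06). Bpgm changed by -1.51 ± 0.16, Tspo2 by -1.28 ± 0.13 and Kel by -1.25 ± 0.13 (adjusted p = 0.00589 each). Fech changed by -0.92 ± 0.12 (0.0156) and Trim10 by -0.79 ± 0.13 (0.0314). These 7 genes encode haem enzymes, membrane proteins and others of the maturing red cell, and none of the 4 transcription factors was among them. In the same step Gata1 changed by -0.05 ± 0.14 (adjusted p = 0.973), Nfe2 by -0.08 ± 0.12 (0.922) and Epor by -0.10 ± 0.11 (0.862). The other 2 factors had larger negative estimates that did not pass, Klf1 with -0.35 ± 0.12 (0.266) and Tal1 with -0.31 ± 0.11 (0.287).

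From 24 to 72 h, 6 of the 34 genes fell (17.6%), where 2.95% of all genes did, and 0 rose, where 1.5% did. Slc14a1 changed by -3.22 ± 0.16 (adjusted p = 1.06e-05), Gata1 by -2.00 ± 0.14 and Nfe2 by -1.67 ± 0.12 (3.24e-05 each). Alas2 changed by a further -1.57 ± 0.14 (0.000116), Epor by -0.60 ± 0.11 (0.0103) and Sptb by -0.53 ± 0.12 (0.0259). Klf1 changed by 0.003 ± 0.12 (0.997) and Tal1 by -0.26 ± 0.11 (0.28), so the later fall passed for Gata1 and Nfe2 alone among the transcription factors. Alas2 was the only gene of the list that fell in both steps. Slc4a1 changed in this step by -0.26 ± 0.12 (adjusted p = 0.3), Bpgm by -0.15 ± 0.16 (0.748), and Kel and Tspo2 by -0.06 ± 0.13 and 0.06 ± 0.13 (0.889 and 0.899). By 24 h Slc4a1, Bpgm, Kel and Tspo2 already lay below the median of their arrays in both arms. Slc4a1 then read 8.20 with adiponectin and 8.46 in control cultures, and Kel 6.76 and 6.82. A further fall of these genes could therefore be missed. From 72 to 120 h, Nfe2 alone fell, by -0.83 ± 0.12 (adjusted p = 0.00565; 1 of 34, 2.94%, where 0.777% of all genes fell), and 0 rose, where 0.376% did. Whether the early and the later genes differ in their steps was not tested itself.

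**Figure D3:**
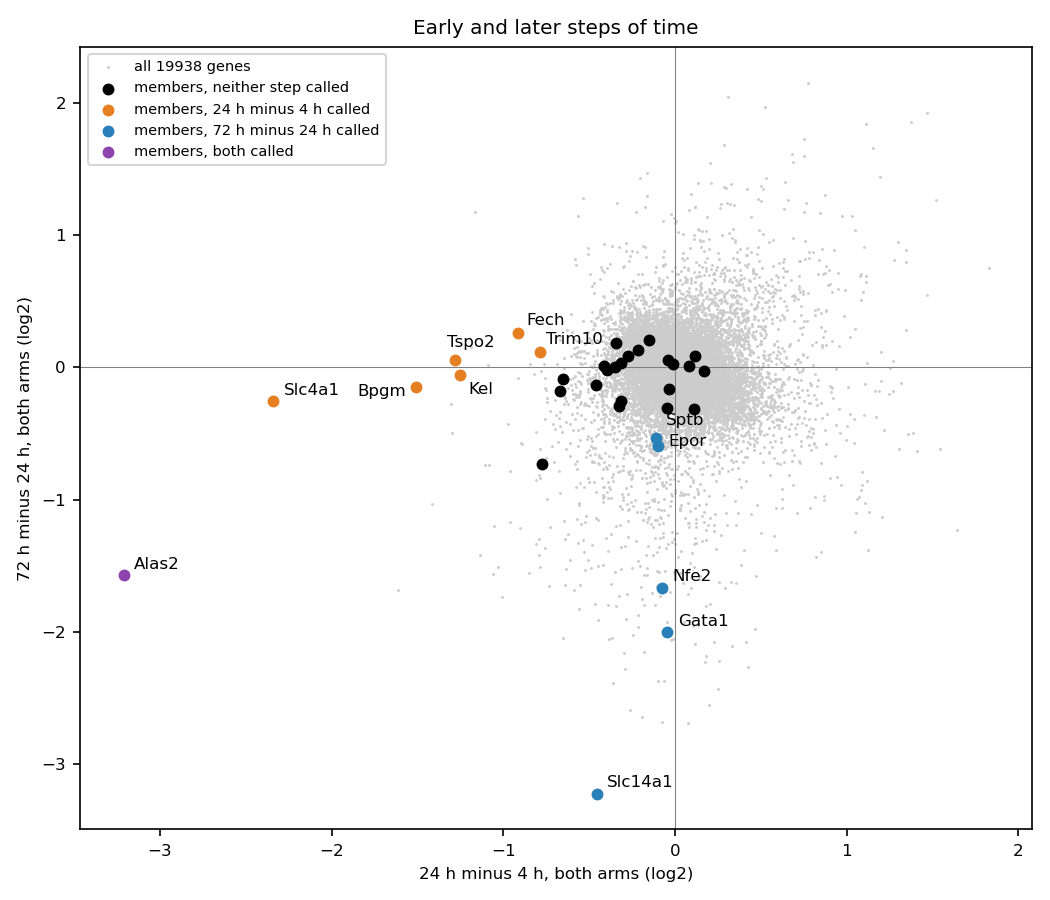
Log2 change from 4 to 24 h (horizontal axis) against that from 24 to 72 h (vertical axis), both arms together. Grey points are all 19938 genes, and coloured points are genes of the list that passed in the first step (orange), the second (blue) or both (purple), with the others in black. Slc4a1, at -2.34 and -0.26, and Slc14a1, at -0.46 and -3.22, lie near the 2 axes, and Alas2, at -3.21 and -1.57, lies low in both.

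Of the later-falling genes, Gata1 and Nfe2 are also used by megakaryocytes, the precursors of platelets. Tal1 is likewise shared by megakaryocytes and red cell precursors, but it passed in neither step. Of 10 megakaryocyte and platelet markers, 6 were measured (Pf4, Ppbp, Itga2b, Gp9, Treml1 and Vwf). From 4 to 24 h, 0 of the 6 passed, where 0.145% of all genes fell and 0.396% rose, and their median change was 0.10. From 24 to 72 h, all 6 fell, where 2.95% of all genes did. Their median change was -1.90, and among them Itga2b fell by -2.09 (adjusted p = 1.06e-05) and Gp9 by -2.07 (5.75e-05). The log2 of their summed signal lay between 15.08 and 15.16 in adiponectin cultures up to 24 h and between 13.35 and 14.01 from 72 h, against 15.17 to 15.30 and 13.34 to 13.89 in control cultures. The megakaryocyte markers thus fell in the step in which Gata1, Nfe2 and Slc14a1 fell, and their part in these changes was not tested.

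Other cell types moved in the same interval. Of 11 neutrophil markers, 0 fell from 4 to 24 h and 9 from 24 to 72 h, where 0.145% and 2.95% of all genes fell. Of 8 B lineage markers, 0 and 6 fell, and of 7 mast cell and basophil markers, 0 and 2 (Cpa3 and Hdc). Of 9 endothelial markers, 0 fell from 4 to 24 h, and Pecam1 and Esam fell from 24 to 72 h, by -0.56 and -1.16 (adjusted p = 0.0296 and 0.000796). Of 9 macrophage markers, 0 fell in either step and Mrc1 rose from 24 to 72 h by 1.15 (adjusted p = 0.0335), where 1.5% of all genes rose. By slope, 3 of the 9 rose with adiponectin and 2 in control cultures, where 4.15% and 4.64% of all genes rose, and 0 fell. C1qa and C1qc rose in both arms, and C1qb with adiponectin. The part of these cells in the result was not tested. No marker of these lists passed the test of a fall from 4 to 24 h, the step in which Alas2 and Slc4a1 fell most. With 0.145% of all genes passing there, 0 of a short list is near the share of all genes. Median changes were -0.22 for neutrophil, -0.18 for B lineage, 0.145 for mast cell and basophil, -0.06 for endothelial and 0.11 for macrophage markers. Single markers ranged from -0.79 for Elane to 0.74 for Mcpt8. Of 11 proliferation genes, 0 changed in either step. Along time, 2 of the 11 fell by slope with adiponectin and 3 in control cultures, where 3.46% and 4.45% of all genes fell. Of the 11, 0 rose in either arm. Mki67 fell in both arms (adjusted p = 0.0186 with adiponectin and 0.0326 in control cultures), as did Top2a (0.0372 and 0.0132), and Ccnb2 fell in control cultures (0.0482).

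**Figure D4:**
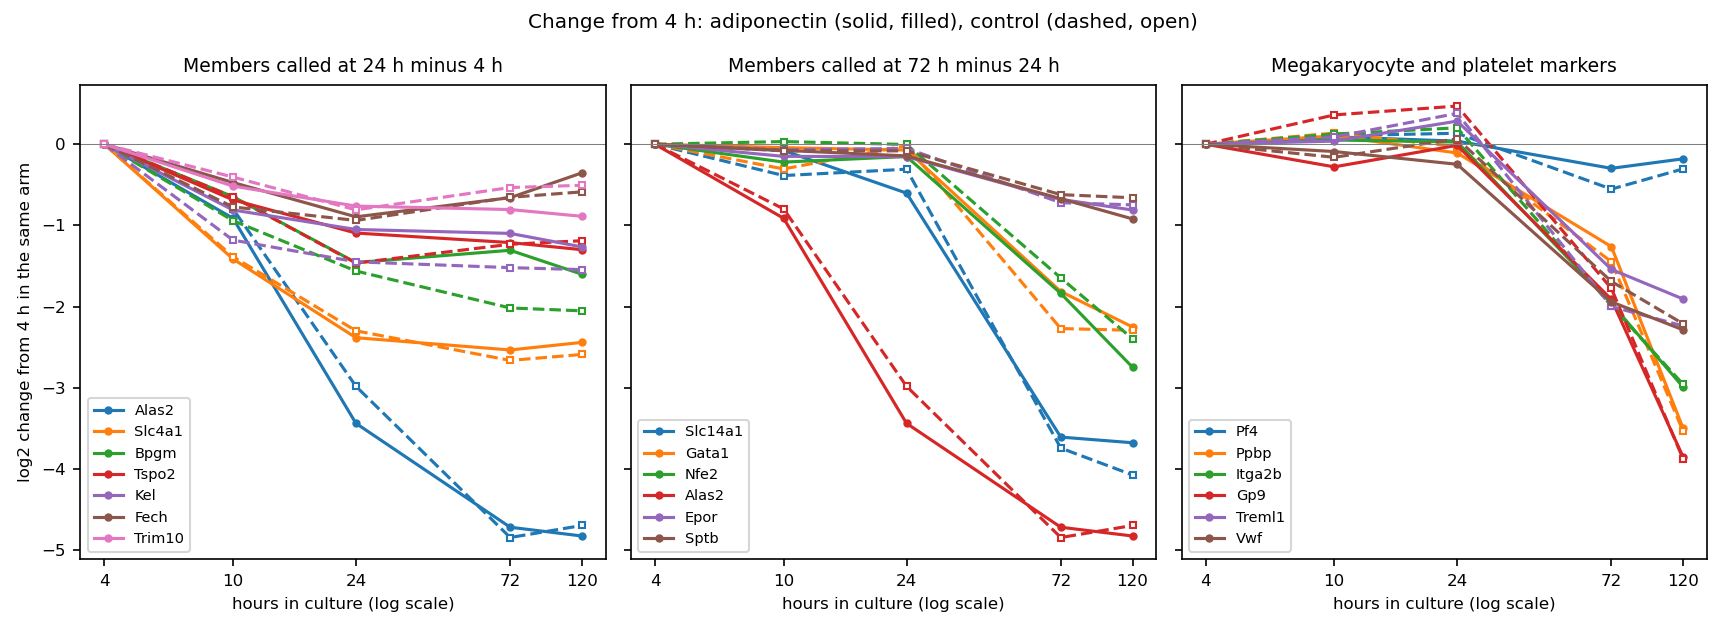
Log2 change from the 4 h array of the same arm (vertical axis) against hours in culture (horizontal axis, log scale), with solid lines and filled points for adiponectin and dashed lines and open points for control cultures. The left panel has the 7 genes that fell from 4 to 24 h, the middle panel the 6 that fell from 24 to 72 h, and the right panel the 6 megakaryocyte markers, which keep near 0 up to 24 h, as Gata1 and Nfe2 do.

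Further genes of red cell formation, listed by function, were tested in the same way. Of 28 other erythroid regulators measured, 11 fell and 0 rose in each arm along time. Of all genes, 3.46% fell and 4.15% rose with adiponectin, and 4.45% fell and 4.64% rose in control cultures. From 4 to 24 h, 3 regulators fell, where 0.145% of all genes did, and from 24 to 72 h 8 fell, where 2.95% did. The 3 early ones were Tent5c, a poly(A) polymerase, by -1.30 (adjusted p = 0.0129), Kit, the stem cell factor receptor, by -0.90 (0.0253), and Myb, a progenitor transcription factor, by -0.74 (0.0263). Those of the later step included Mfsd2b, a sphingosine-1-phosphate exporter of red cells and platelets, by -2.69 (1.11e-05), Gfi1b by -1.52 (0.000339) and the GATA1 cofactor Zfpm1 by -1.14 (0.000417). Mfsd2b had 11.49, 11.40, 11.32, 8.97 and 7.70 in adiponectin cultures, against 11.54, 11.61, 11.85, 8.83 and 7.88 in control cultures. It was lower at 72 h than on any earlier array in both arms.

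Of 10 other genes of the haem pathway, Alas1, the housekeeping counterpart of Alas2, fell in both arms, with slopes of -0.18 with adiponectin and -0.19 in control cultures (adjusted p = 0.0126 and 0.012), and 0 rose. Alas1 read 10.96 at 120 h and 11.78 at 4 h in adiponectin cultures, and 10.78 and 11.62 in control cultures. Of 9 other red cell membrane genes, Cd24a fell in both arms (slopes of -0.67 and -0.74, adjusted p = 0.0125 with adiponectin and 0.0101 in control cultures). In control cultures Stom and Cd47 also fell and Piezo1 rose (adjusted p = 0.0227, 0.018 and 0.0424). Of all genes, 3.46% fell with adiponectin, and 4.45% fell and 4.64% rose in control cultures.

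None of the 34 genes passed the test of an adiponectin effect. The effect over the 5 times, in which adiponectin and control cultures were paired by time, passed for 0 of 34 genes in either direction, where 0.371% of all genes fell and 2.05% rose (limma). At an unadjusted p under 0.05, 6 of the 34 were lower and 1 higher, where 4.21% of all genes were lower and 5.91% higher. The effects ranged from -0.42 for Tfrc to 0.22 for Slc25a37, with a median of -0.03 over the 34 genes and 0.01 over all genes. Their 95% intervals reached from -0.69 to 0.38, so the data allow effects up to that size. The lowest adjusted p was 0.101, for Slc14a1.

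The largest mean differences were those of Tfrc and Slc14a1, both lower with adiponectin at every time but short of the threshold. Tfrc was lower with adiponectin by -0.29, -0.02, -0.96, -0.62 and -0.20 at 4, 10, 24, 72 and 120 h, a mean of -0.42 ± 0.38 (SD, n = 5 times; limma adjusted p = 0.151). The difference was largest at 24 h, where the adiponectin array read 10.46 and the control array 11.41. Slc14a1 differed by a mean of -0.38 ± 0.27, lower at 5 of 5 times. Alas2 differed by -0.25 ± 0.22 (adjusted p = 0.287), Urod by -0.22 ± 0.10 (0.229), Nfe2 by -0.21 ± 0.13 (0.294) and Aqp1 by -0.19 ± 0.11 (0.37). Slc25a37 was higher with adiponectin at 5 of 5 times, by 0.22 ± 0.10 (0.241).

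Of the 34 genes, 9 (26.5%) were lower with adiponectin at 5 of 5 times, where 4.4% of all genes were. They were Nfe2, Epor, Tfrc, Alas2, Urod, Slc4a1, Kel, Slc14a1 and Aqp1. Slc25a37 alone was higher at 5 of 5 times (1 of 34, where 6.32% of all genes were). These counts were not tested. All 34 genes were read on the same 5 pairs of arrays and can move together, so they are not independent replicates. With each array centred on its median, 8 were lower throughout (5.47% of all genes), without Alas2, and after repeated quantile normalization 7 (7.62%), without Nfe2, Slc4a1 and Aqp1 and with Fech. At single times, with 1 array per arm and no test, the median difference of the 34 genes was -0.06 at 4 h, -0.02 at 10 h, -0.09 at 24 h, -0.003 at 72 h and -0.13 at 120 h. Over all genes it was 0.04, 0.07, 0.01, -0.01 and -0.03 at those times. Lower with adiponectin were 22, 19, 21, 18 and 24 of the 34 genes (64.7%, 55.9%, 61.8%, 52.9% and 70.6%), where 43.1%, 35.4%, 48.1%, 53% and 56.5% of all genes were lower, so at 72 h the share was that of all genes. These medians depended on the scaling. At 10 h the median of the 34 genes was -0.15 (26 lower) with arrays centred and -0.15 (24 lower) after repeated quantile normalization, while that of all genes was -0.07 and -0.02. At 4 h it was -0.11 after repeated quantile normalization, and at 120 h -0.09. At 72 h it was 0.01 under both. Differences beyond 0.5 were those of Tfrc, Slc14a1 and Alas2 at 24 h and of Tfrc at 72 h, all lower with adiponectin. These are 3 and 1 of the 34 genes, where 3.55% and 1.16% of all genes were lower by over 0.5 at those times.

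**Figure D5:**
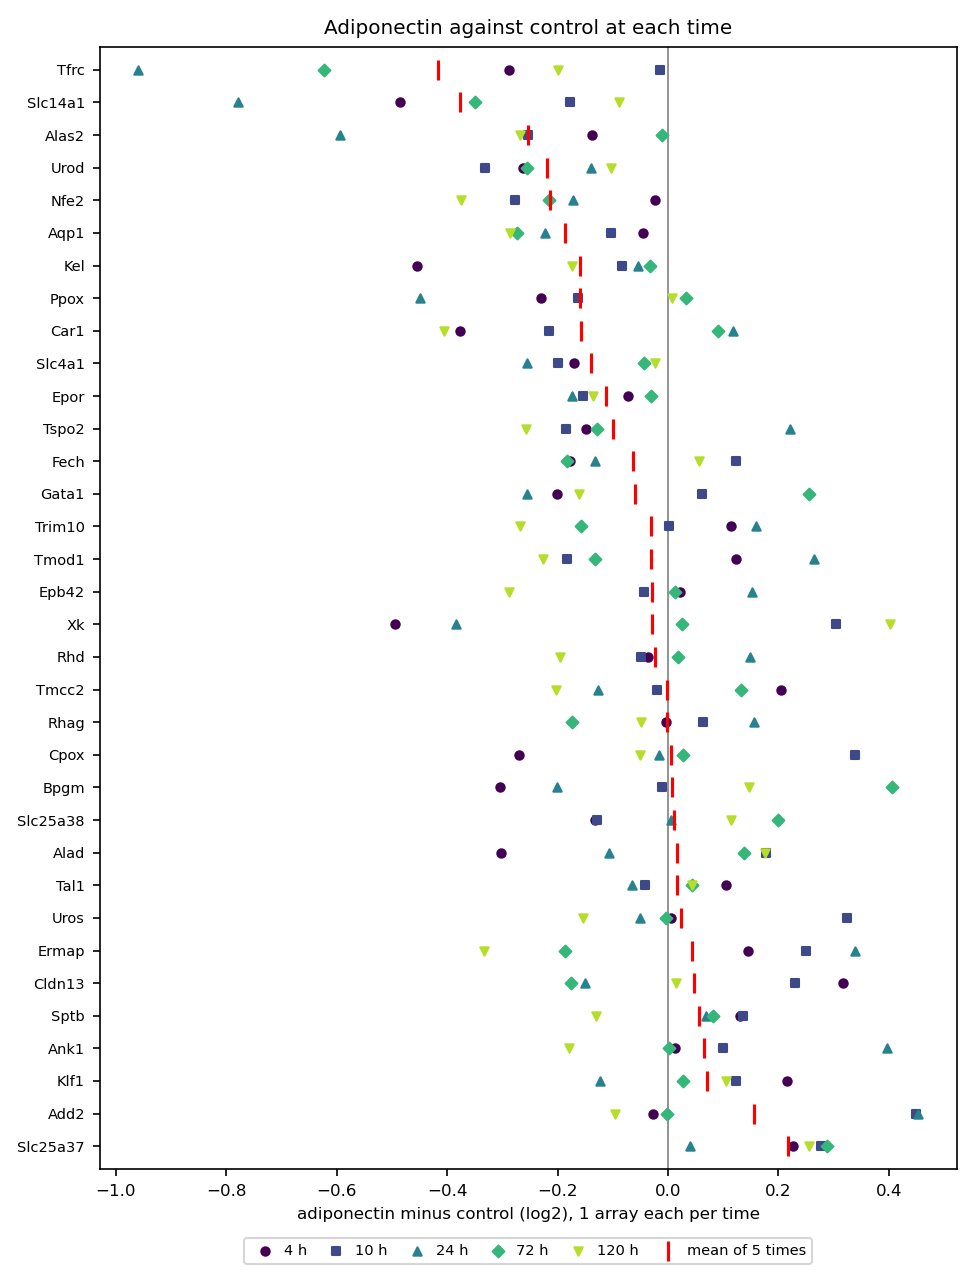
Adiponectin minus control (horizontal axis, log2 difference) for each of the 34 genes at 4, 10, 24, 72 and 120 h (symbols, 1 array per arm and time), with the mean of the 5 times as a red bar. Tfrc has the widest spread towards lower values, to -0.96 at 24 h, and most means lie within 0.25 of 0.

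The slopes along time were also set against each other. The test of their difference passed for 0 of 34 genes and for 0% of all genes in either direction (limma, lowest adjusted p over the 34 of 0.635), and at an unadjusted p under 0.05 it was lower with adiponectin for 1 of 34 genes and higher for 0, where 6.3% of all genes were lower and 1.38% higher. The differences of the slopes ranged from -0.11 for Ermap to 0.12 for Xk, with 95% intervals from -0.50 to 0.59. For Alas2 the difference was 0.003 ± 0.15 and for Slc4a1 0.04 ± 0.14. Among the other erythroid regulators, the adiponectin effect over the 5 times passed for 1 of 28 genes, where 2.05% of all genes were higher. This was Jak2, the kinase that relays the erythropoietin signal and those of many cytokines. It was higher with adiponectin by 0.42 (adjusted p = 0.0165), and its slope difference did not pass (0.719).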

How the data were processed

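The deposited values are log2 signals, 1 per probe set and array. Per the submitters' processing notes, the authors used RMA, Partek and Affymetrix Expression Console. Their versions and order and the genome build were not given in the sources used here. RMA's quantile step removes much of any shift common to most genes. Of 35556 probe sets, 21789 carried 1 gene symbol, 1621 several and 12146 none. Only the first were used, with the highest-mean probe set for the 999 genes with several, which left 19938 genes. Entrez IDs were checked against RefSeq, where 91 were not found and 0 symbols changed.

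Fits used limma 3.58.1 under R 4.3.3, with two-sided moderated tests, Benjamini-Hochberg adjustment over all genes and a threshold of 0.05. Slopes had an intercept and a slope on log2 hours per arm (6 residual degrees of freedom). The adiponectin effect and the test among times had time as 5 levels beside treatment (4 degrees of freedom). Adiponectin and control cultures were paired by their time in the labels, and 1 array stood for each arm and time. Deviations from the arm mean correlated across genes between the arrays of a time at 0.42 to 0.80, which includes changes with time. The fits were tested on simulated data. Alternatives changed the scaling, the dim-gene filter, the probe set rule, the prior, the time scale, the block and the times included. The members, lists, tests and naming rules (every member named, with values on each array for 6 chosen genes and the 2 steepest of each role, and for Kel and Xk, added after their values were seen) were chosen with earlier results of these data known. The number of arrays limits the precision.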

Additional observations from a re-analysis of the deposited data

How the results depend on the processing

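Leaving out the arrays of 1 time moved the number of the 34 genes with a falling slope between 1 and 15 in adiponectin cultures and between 1 and 14 in control cultures (13 each with all times). A slope over 4 times has fewer samples. The test among the 5 times called 12 to 18 genes under these omissions. A step needs both of its own times, so only the omission of other times could be tried for it. Under those, the step from 4 to 24 h called 7 to 8 genes and that from 24 to 72 h 6 to 7. Such omissions change the error of a step and not its estimate. They therefore cannot show how a step depends on its own arrays. With genes below the median gene left out as dim, 20 of the 34 were tested, and 3 fell from 4 to 24 h in place of 7. Bpgm, Tspo2, Kel and Trim10 were removed by this filter and so were not tested, while Alas2, Slc4a1 and Fech kept their calls. The paired fit and the fit with no replicate block both called 0 of the 34 genes for adiponectin, and the time point as a random block (correlation 0.18) ended no slope call. Scaling, probe set averaging and linear hours left the counts within 1.5 times of those reported, and 0 estimates of called genes changed sign. Gata1 with adiponectin (adjusted p = 0.0639) and Nfe2 and Tspo2 in control cultures (0.0539 and 0.0521) lost their slope call when the prior followed intensity and was fitted robustly. The deposited values carry no detection call, so small changes of dim genes such as Rhag or Kel could be missed.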

Other observations

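Genes that bind or break down haem or handle its iron serve, among others, the macrophages that clear red cells. Of 10 measured, 0 passed the test of a fall along time in either arm, 0 rose in adiponectin cultures, and Hpx, haemopexin, rose in control cultures (slope 0.12, limma adjusted p = 0.0236). Hpx lay below the median gene of every array, and its slopes did not differ between the arms past the threshold (limma adjusted p = 0.635). Of all genes, 3.46% fell and 4.15% rose with adiponectin, and 4.45% fell and 4.64% rose in control cultures. Spic, the transcription factor of red pulp macrophages, rose from 4 to 24 h by 0.66 and fell from 24 to 72 h by 0.81 (adjusted p = 0.0452 and 0.00255, both arms together). Hmox1, haem oxygenase 1, was higher with adiponectin by 0.34 ± 0.16 (mean of 5 times ± SD), with an adjusted p of 0.0623.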
